A study of Mus musculus with 6 samples.

Results

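The genes described here lie in the middle segment of mouse chromosome 9, between 42000000 and 73000000 in the mm10 build. They were chosen by position, as the genes of the deposited count table on chromosome 9 whose first exon start falls in that interval and that have 10 or more counts summed over 6 retinas. Of the 751 genes of the interval, 29 were left out by name, as were 292 with fewer than 10 counts, which left 430 genes out of the 55376 in the table. The segment had been picked because low p-values of the comparison between the genotypes were frequent on it. For that reason every difference between the genotypes is given as a description of these retinas, and nothing is tested or supported with it. The interval holds no single gene family, so its genes are described by the functions listed for them.

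Retinas were compared between 3 wild type (WT) mice and 3 Wfs1-KO mice, all at 240 days after birth. Wfs1 encodes wolframin, a membrane protein of the endoplasmic reticulum, and loss of its function in humans causes Wolfram syndrome, with diabetes and degeneration of the optic nerve. The knockout mice carried a targeted deletion of exon 8 of Wfs1 on both alleles, a change present in the whole body and not limited to the eye. WT mice carried the unchanged gene, no group received a treatment, and each library came from the retina tissue of 1 mouse. The labels give the strain of both groups as C57x129, whereas the study's methods name C57BL/6 J. Wfs1 itself is not on chromosome 9.

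The retina is a layered nervous tissue in which rods and cones turn light into electrical signals, bipolar, amacrine and horizontal cells pass and shape them, and ganglion cells send them through the optic nerve. Mueller glia span all layers. The retinal pigment epithelium lies behind the photoreceptors, recycles the visual pigment and can stay attached to a dissected retina. The chromosome 9 segment holds neuronal genes such as a cluster of nicotinic acetylcholine receptor subunits and the dopamine receptor Drd2, ion transport subunits of the FXYD family, and genes linked to photoreceptors, such as the rod sodium, calcium and potassium exchanger Slc24a1.

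Total counts per library ranged from 17916885 to 101334381, and a floor of 3 counts corresponded to between 0.0291 and 0.170 CPM (counts per 1000000 of the library's TMM-scaled size). Wfs1 was at 64.9, 61.4 and 69.9 CPM in the WT retinas and at 9.63, 0.900 and 11.5 CPM in the Wfs1-KO retinas. The library of Wfs1-KO replicate 2 stood apart, with a mean correlation across tested genes of 0.918 to the other 5, which had means between 0.962 and 0.971. Its summed markers of blood were 480 CPM against 12.3 to 41.2 CPM in the other 5 retinas, and those of macrophages 101 against 3.24 to 8.36 CPM. The markers listed for the cornea summed to 32.6 CPM in it against 0.214 to 1.04 CPM. Nearly all of that sum came from Krt5 (11.0 CPM) and Krt14 (21.3 CPM). Krt12 was at 0.284 CPM in it, within the 0.0420 to 0.341 CPM of the other 5. Summed rod markers were between 39163 and 53461 CPM in all 6 retinas, and lens markers did not exceed 1.62 CPM. WT replicate 3 had 1137 counts of Ddx3y and 4 of Xist, while the other 5 retinas had at most 2 counts of Ddx3y and at least 10583 of Xist. Differences are log2 fold changes of Wfs1-KO over WT from edgeR's quasi-likelihood fit. A value after ± is the standard error, and a value in parentheses after a difference is the same difference without Wfs1-KO replicate 2. In whole tissue, fewer cells of a type and less RNA per cell cannot be told apart.

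Promoter sequences are shown for the genes with the largest difference between genotypes among those without overlap between the groups and with at least 50 counts per retina on average. The 5 sequences below run 5′ to 3′ on the strand of the gene, from 250 bases before to 50 bases after the RefSeq start in GRCm38.p6, the assembly of the mm10 build. Capitals mark matches, on either strand, to any of the motifs searched, the CRX site (TAATCC), the E-box (CACGTG), the GC box (GGGCGG), the TATA box (TATAAA) and the CCAAT box (CCAAT). CRX is a homeodomain factor of photoreceptors, and the other letters are short motifs common in promoters. The Fxyd2 promoter was named by the same rule and has no sequence here. The positions are chr9:62857854-62858153 (plus strand) for Calml4, chr9:55283576-55283875 (minus) for Nrg4, chr9:44134436-44134735 (minus) for Gm10687, chr9:44101520-44101819 (plus) for Mfrp and chr9:48495093-48495392 (plus) for Gm5617.
Calml4: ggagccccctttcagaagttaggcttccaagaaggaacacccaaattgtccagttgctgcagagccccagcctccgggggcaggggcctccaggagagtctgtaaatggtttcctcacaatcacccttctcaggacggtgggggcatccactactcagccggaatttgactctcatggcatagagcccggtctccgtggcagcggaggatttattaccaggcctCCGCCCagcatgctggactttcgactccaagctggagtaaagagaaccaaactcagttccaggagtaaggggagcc
Nrg4: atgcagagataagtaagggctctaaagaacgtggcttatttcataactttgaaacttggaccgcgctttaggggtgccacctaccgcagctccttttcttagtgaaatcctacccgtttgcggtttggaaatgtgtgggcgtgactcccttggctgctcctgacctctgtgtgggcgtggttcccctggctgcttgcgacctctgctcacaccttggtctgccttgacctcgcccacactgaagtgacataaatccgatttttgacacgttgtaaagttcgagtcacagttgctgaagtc
Gm10687: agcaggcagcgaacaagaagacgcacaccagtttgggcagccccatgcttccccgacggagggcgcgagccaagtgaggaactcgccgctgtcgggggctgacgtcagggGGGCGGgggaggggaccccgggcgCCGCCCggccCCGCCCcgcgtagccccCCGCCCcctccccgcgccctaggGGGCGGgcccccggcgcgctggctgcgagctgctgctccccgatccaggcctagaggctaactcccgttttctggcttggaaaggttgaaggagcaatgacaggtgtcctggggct
Mfrp: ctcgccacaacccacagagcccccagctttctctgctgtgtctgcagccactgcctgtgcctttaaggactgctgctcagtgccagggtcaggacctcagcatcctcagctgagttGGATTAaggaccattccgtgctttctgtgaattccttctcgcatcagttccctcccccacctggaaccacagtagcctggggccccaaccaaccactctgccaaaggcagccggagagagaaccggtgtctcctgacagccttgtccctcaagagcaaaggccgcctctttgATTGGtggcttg
Gm5617: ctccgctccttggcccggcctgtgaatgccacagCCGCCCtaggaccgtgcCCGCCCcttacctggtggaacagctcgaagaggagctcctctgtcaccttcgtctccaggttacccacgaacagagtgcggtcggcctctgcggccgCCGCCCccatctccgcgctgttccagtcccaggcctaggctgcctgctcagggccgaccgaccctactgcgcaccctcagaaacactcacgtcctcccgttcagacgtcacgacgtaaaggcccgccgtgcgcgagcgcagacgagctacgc
The Mfrp sequence held 1 match to the CRX site and 1 to the CCAAT box, both on the opposite strand. Calml4 had 1 GC box, Gm10687 had 5 and Gm5617 had 3, whereas the Nrg4 sequence held no match to these letters. The RefSeq start used for Nrg4 lies 43124 bases from the gene start in the count table, whereas the other 4 starts lie within 99 bases of it. Of the 338 RefSeq promoters of 276 segment genes, 56.8% held a GC box, 36.7% a CCAAT box, 7.99% a TATA box, 6.80% an E-box and 4.14% a CRX site. Over all 32851 promoters of the same length the shares were 35.7%, 37.4%, 13.6%, 7.15% and 7.06% in the same order of motifs. The segment genes had been kept only with a minimum of counts in these retinas, and all promoters were taken without that limit. These shares therefore do not compare like sets and cannot be read as a trait of the segment. A match is a description of the letters and not a bound site.

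Of the 430 genes, 290 were protein coding, 36 lincRNAs, 30 TEC loci (a GENCODE class of loci whose transcripts await experimental evidence), 28 pseudogenes and 26 antisense RNAs, and the remaining genes were 5 snRNAs, 5 snoRNAs, 2 miRNAs, 5 processed transcripts, 1 bidirectional promoter RNA and 2 without a class. A filter on low counts kept 321 for the comparison between genotypes, of which 260 were protein coding, and left 109 untested with 10 to 99 counts in all. Levels between genes are compared as CPM per kilobase of exon. The gene with the highest level was Slc24a1, which exports calcium from the rod outer segment in exchange for sodium, with 366 CPM per kb. Anp32a, a nuclear protein that inhibits a protein phosphatase, had 326 CPM per kb, the tetraspanin Tspan3 had 188, Cplx3, a complexin of ribbon synapses, had 166, and Scamp5, a synaptic vesicle protein, had 163. The median tested gene of the segment had 5.23 CPM per kb. Exons of 129 of the 430 genes overlap an exon of another gene of the interval, 120 of them on the opposite strand. Overlaps with genes that start outside the interval were not searched. How the counting treated strand is not given in the sources used here, so the reads of such pairs cannot be told apart.

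**Figure D1:**
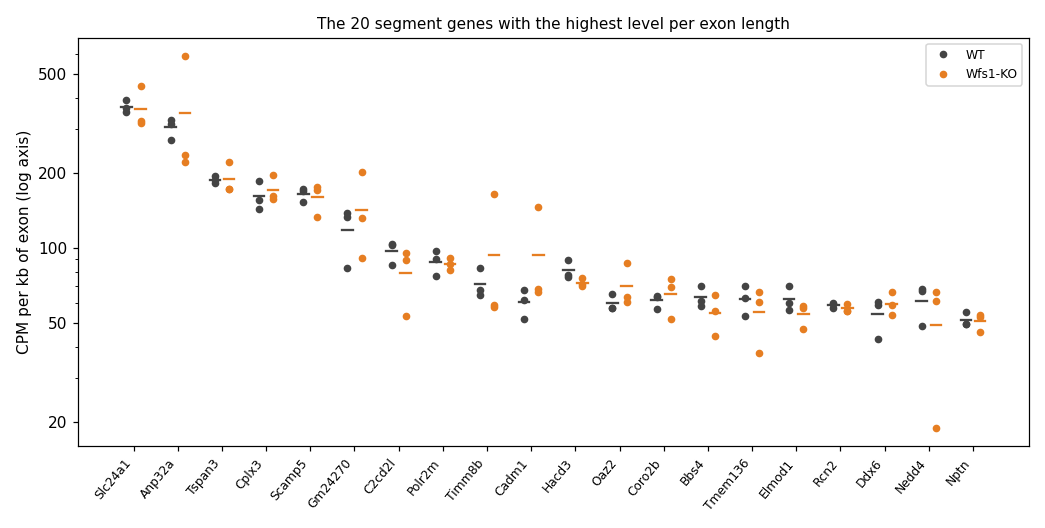
Levels of the 20 tested segment genes with the highest CPM per kilobase of exon, on a log axis, with 1 point per retina, bars at the group means, grey for WT and orange for Wfs1-KO. Slc24a1 and Anp32a lead at 366 and 326 CPM per kb, and Anp32a is highest in Wfs1-KO replicate 2.

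The most abundant genes had small differences. Slc24a1 had 1824, 2038 and 1909 CPM in WT and 1657, 2329 and 1685 CPM in Wfs1-KO retinas, which overlap, and its log2 fold change was -0.03 ± 0.19 (-0.21 without Wfs1-KO replicate 2). Tspan3 was at 0.00 ± 0.17 (-0.13), Cplx3 at 0.09 ± 0.18 (-0.02) and Scamp5 at -0.05 ± 0.18 (0.06), all with overlapping groups. Anp32a had 750, 723 and 620 CPM in WT and 540, 1350 and 505 CPM in mutant retinas. Wfs1-KO replicate 2 was above every other retina, and the other 2 mutants lay below all WT retinas. Its log2 fold change was 0.19 ± 0.38 with all 6 retinas and -0.42 ± 0.13 without that replicate.

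Across the 321 tested genes, every Wfs1-KO retina was above every WT retina in 37 genes (11.5%) and below in 28 (8.72%). Over all 18547 tested genes of the genome the shares were 5.01% and 3.94%, and the rest of chromosome 9, with 719 tested genes, had 41 above and 33 below. Since the segment was picked on this same comparison, these shares describe it and do not test it. The median log2 fold change was -0.026, against 0.023 over all genes, with 152 genes above 0 and 169 below. The median size of the difference, regardless of sign, was 0.22 in the segment, 0.21 over all genes and 0.24 in the rest of chromosome 9. Without Wfs1-KO replicate 2 these sizes were 0.20, 0.16 and 0.19. A difference of 2-fold or more was seen in 30 genes, 21 higher and 9 lower, with 6.51% of all genes past that size, and 14 of the 30 were past it with the same sign without that retina.

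With edgeR's quasi-likelihood test and Benjamini-Hochberg adjustment over all 18547 genes, 0 of the 321 had an adjusted p under 0.05, with 0.0108% of all genes past it. Of the segment genes left out by name, 27 were tested and 1 passed, so the 0 holds only for the genes that remained. At an unadjusted p under 0.05 there were 27 of the 321, with 2.81% of all genes. With DESeq2 there were 6 (Nrg4, Gm37150, Adpgk, Mfrp, 2900052N01Rik and Acsbg1), with 0.282% of all genes. Without Wfs1-KO replicate 2, edgeR tested 341 of the 430 genes and 2 passed, Fxyd6 and Gm37150, with 0.125% of all genes past the threshold. In it 44 genes had an unadjusted p under 0.05, with 5.19% of all genes. In that fit 58 genes were above WT without overlap and 64 below, with 11.0% and 11.4% of all genes. Leaving out a retina can by itself make more genes separate. Of the 65 genes separate with all 6 retinas, 22 had a log2 fold change more than 1.5 times as large with that retina as without it. Over the 321 genes, 109 had a different sign without it. It was the highest of the 6 retinas in 35.8% and the lowest in 39.9% of them, against 38.4% and 37.0% of all tested genes.

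**Figure D2:**
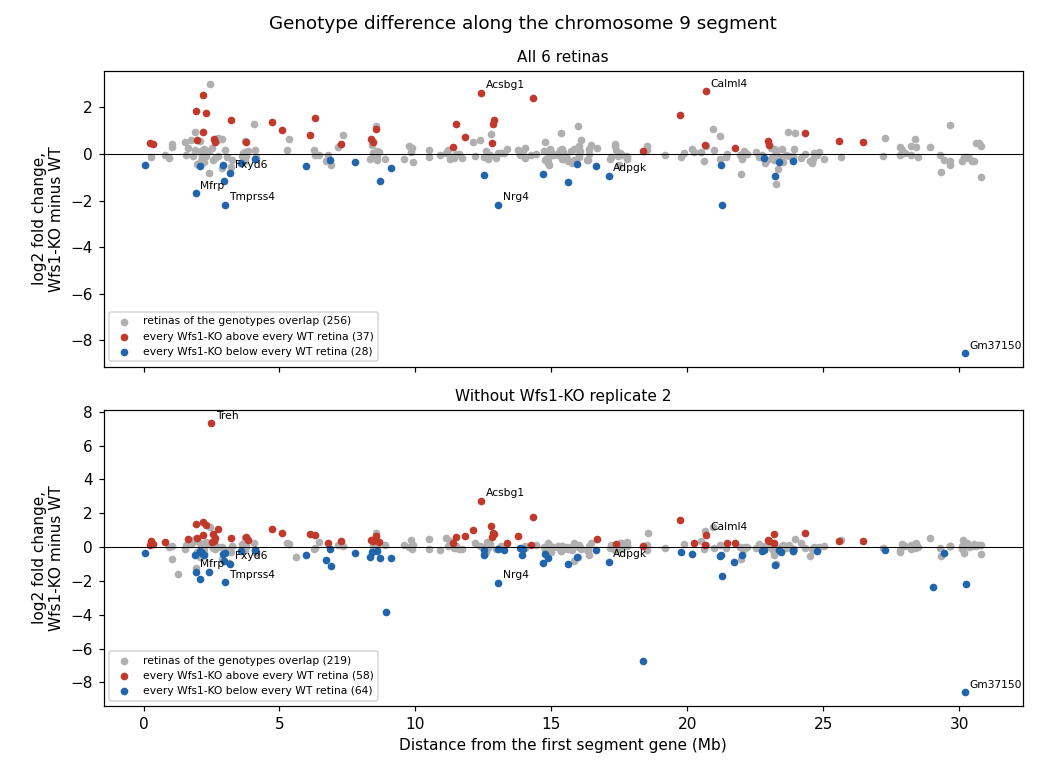
Log2 fold change of Wfs1-KO over WT against the distance from the first gene of the segment in megabases, with 1 point per tested gene, for all 6 retinas above (321 genes) and without Wfs1-KO replicate 2 below (341 genes). Red points are genes with every mutant retina above every WT retina (37 above, 58 below) and blue points the reverse (28 and 64), and the fitted values of Gm37150 and Treh, which had no counts in one genotype, depend on the prior count of the fit.

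Among the genes with lower values in mutant retinas, Nrg4 encodes neuregulin 4, a secreted ligand of the receptor ERBB4, and lies at chr9:55220223-55326749 on the minus strand. It had 1.94, 1.77 and 1.70 CPM in the WT retinas and 0.398, 0.332 and 0.454 CPM in the mutants. The groups were far apart, Wfs1-KO replicate 2 lay with the other mutants, and the log2 fold change was -2.19 ± 0.35 (-2.10 ± 0.36). Its exons overlap Fbxo22 on the opposite strand, which was at 0.06 (-0.11). Adpgk, an ADP-dependent glucokinase of the endoplasmic reticulum membrane, had 23.0, 25.0 and 26.3 CPM in WT and 14.4, 11.6 and 12.4 CPM in mutant retinas. All mutants were lower by a like amount, at -0.95 ± 0.18 (-0.89 ± 0.16).

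Gm37150, a TEC locus at chr9:72384389-72387142 on the plus strand, had 0.587, 0.841 and 1.25 CPM in WT retinas and no count in any mutant retina. Its 101 WT counts make it at least 48.5-fold lower in the mutants, with a floor of 3 counts over the group. Gm6257, a processed pseudogene, was at -2.19 ± 1.33 (-1.72), ranged from -6.42 to -1.58 when each retina was left out, and as a pseudogene may share reads with its parent gene. Tmprss4, a transmembrane serine protease, had 0.677, 0.841 and 0.624 CPM in WT and 0.126, 0.118 and 0.227 CPM in mutants. Its groups did not overlap, at -2.19 ± 0.49 (-2.09). Gm17231, an antisense RNA whose exons overlap Arid3b, had 13.5, 11.8 and 18.0 CPM in WT and 7.39, 3.95 and 7.27 CPM in mutants, and was at -1.21 ± 0.31 (-0.97), while Arid3b was at -0.29 ± 0.22 (-0.12).

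Mfrp encodes a frizzled-related membrane protein of the pigment epithelium and ciliary body, whose loss causes retinal degeneration and small eyes. It had 3.42, 3.68 and 5.90 CPM in WT retinas and 1.64, 0.876 and 1.48 CPM in mutant retinas. Every mutant was below every WT retina, and the log2 fold change was -1.69 ± 0.37 (-1.45 ± 0.30). Its gene model shares 1376 exon bases on the same strand with C1qtnf5, which was listed with no counts in any of the 6 libraries. How the counting treated reads on shared exons is not given in the sources used here. The lack of counts therefore cannot be read as no expression of C1qtnf5, and the Mfrp values may leave out such reads. The 6 pigment epithelium markers summed to 102, 156 and 116 CPM in WT and to 83.5, 373 and 45.5 CPM in mutant replicates 1, 2 and 3. Of the 6 markers 4 were above 0 with all retinas, and 1 was without Wfs1-KO replicate 2, where their median went from 0.08 to -0.87. In that retina Ttr was at 234 CPM and Rgr at 105 CPM. The 2 markers below 0 with all retinas were Lrat at -1.54, with every mutant below every WT retina, and Rpe65 at -0.34. The part of these markers in the Mfrp result was not tested.

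Ion transport subunits included several genes below WT in every mutant. Fxyd6, a regulator of the sodium and potassium pump, had 77.2, 65.1 and 79.2 CPM in WT and 39.4, 50.7 and 35.7 CPM in mutant retinas, at -0.82 ± 0.20 (-0.98 ± 0.15). Scn4b and Scn2b encode beta subunits of voltage-gated sodium channels. Scn4b had 10.9, 11.2 and 12.1 CPM in WT against 5.63, 2.65 and 7.13 CPM in mutants, at -1.15 ± 0.36 (-0.85). Scn2b had 85.8, 80.3 and 81.2 CPM against 64.0, 53.1 and 60.0 CPM, at -0.48 ± 0.16 (-0.42). In all of these no mutant retina reached the lowest WT value. Hcn4, a pacemaker channel, was at -0.51 ± 0.36 and at -0.18 without Wfs1-KO replicate 2.

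Some genes lower in every mutant had their lowest value by far in Wfs1-KO replicate 2. Sik2, a salt-inducible kinase, had 30.2, 45.8 and 42.9 CPM in WT and 26.0, 0.995 and 25.7 CPM in mutants. That retina was far below the other 5, and the log2 fold change of -1.17 ± 0.91 became -0.62 ± 0.18 without it. Dnaja4, a cochaperone, had 4.48 CPM in that retina, 19.7 and 17.3 CPM in the other mutants and 23.4 to 28.5 CPM in WT, at -0.90 ± 0.49 (-0.49 ± 0.16). Exons of Sik2 share 1429 bases with Ppp2r1b and those of Dnaja4 share 1581 bases with Wdr61, both on the opposite strand. Abcg4, a sterol transporter, was at -0.53 ± 0.31 (-0.24). In other genes that retina lay near the other mutants. Rasl12, a small GTPase, was at -0.95 ± 0.43 (-1.05), and at -0.56 without WT replicate 1. Nxpe4 was at -0.54 ± 0.24 (-0.45), and the antisense RNA 2010007H06Rik was at -0.61 ± 0.34 (-0.64).

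Among the genes with higher values, the lincRNA 2900052N01Rik at chr9:46913493-46927366 on the plus strand had 14.3, 17.7 and 11.2 CPM in WT and 33.2, 49.8 and 28.3 CPM in mutant retinas. Each mutant was above each WT retina, at 1.36 ± 0.28 (1.08 ± 0.19). Acsbg1, an acyl-CoA synthetase for long-chain fatty acids, was low in all retinas, with 0.120, 0.0841 and 0.114 CPM in WT and 0.728, 0.521 and 0.727 CPM in mutants. The groups were well separated, at 2.62 ± 0.49 (2.75 ± 0.57). These levels rest on 8, 4 and 2 counts in WT and 75, 22 and 32 counts in mutants. Kif23, a kinesin of cell division, was at 1.69 ± 0.48 (1.57).

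Gm10687, an antisense RNA next to Mcam, had 0.542, 0.630 and 0.454 CPM in WT and 1.59, 2.98 and 1.29 CPM in mutants. Mcam, a cell adhesion molecule of vessels, lies beside it on the opposite strand and had 4.02, 5.17 and 4.09 CPM against 6.70, 7.53 and 6.06 CPM. Both had every mutant above every WT retina, at 1.83 ± 0.44 (1.38) and 0.61 ± 0.23 (0.52). The 4 vessel markers summed to 170 to 224 CPM in WT and 198 to 240 CPM in mutant retinas, with all 4 above 0, or 3 without Wfs1-KO replicate 2, and their part in the Mcam result was not tested.

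The nicotinic receptor cluster holds the alpha subunits Chrna3 and Chrna5 and the beta subunit Chrnb4, which assemble into acetylcholine-gated channels. Chrnb4 had 0.753, 1.18 and 1.82 CPM in WT and 2.10, 4.62 and 2.23 CPM in mutants, at 1.28 ± 0.48 (0.85). Chrna3 had 9.44, 8.81 and 11.1 CPM against 12.8, 11.3 and 16.4 CPM, at 0.47 ± 0.22 (0.58). Neither overlapped between groups. Chrna5 had 5.51, 7.82 and 9.93 CPM against 15.8, 6.04 and 20.3 CPM, so that Wfs1-KO replicate 2 lay within the WT range, at 0.86 ± 0.45 (1.23).

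**Figure D3:**
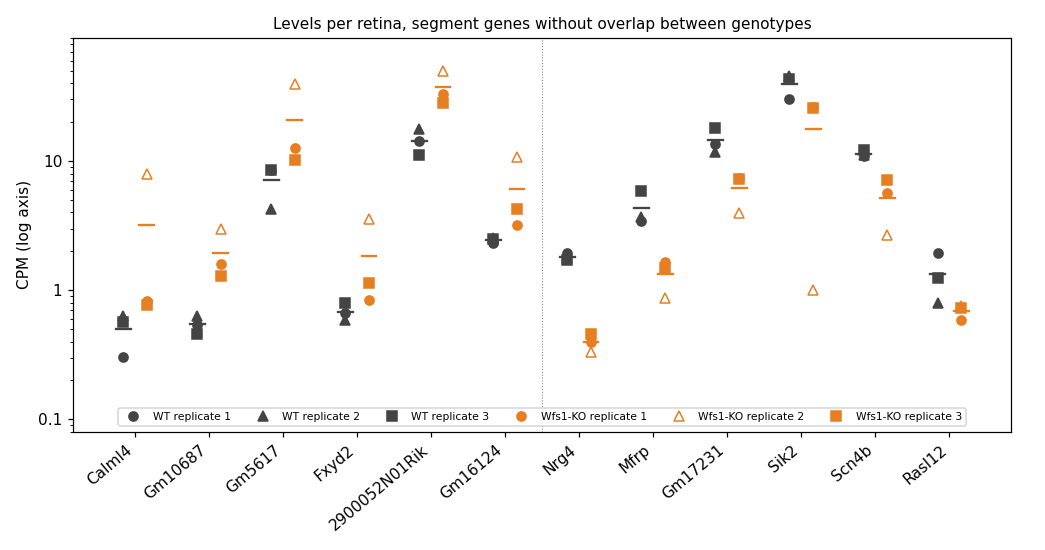
CPM per retina on a log axis for the 6 genes with the largest higher and the 6 with the largest lower difference among segment genes without overlap and with at least 50 counts on average, with grey symbols for WT, orange for Wfs1-KO, open triangles for Wfs1-KO replicate 2 and bars at the group means. That retina is the extreme mutant in Calml4 (7.98 CPM), Gm5617 (39.2 CPM) and Sik2 (0.995 CPM), while for Nrg4 the mutants lie between 0.332 and 0.454 CPM.

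Several of the largest higher values came mainly from Wfs1-KO replicate 2. Calml4, a calmodulin-like protein, had 0.301, 0.630 and 0.568 CPM in WT and 0.825, 7.98 and 0.772 CPM in mutants, at 2.69 ± 1.00 and 0.71 ± 0.47 without that retina. Gm5617 had 8.46, 4.27 and 8.51 CPM in WT and 12.6, 39.2 and 10.3 CPM in mutants, at 1.55 ± 0.56 (0.70). Fxyd2, another pump regulator, went from 1.44 ± 0.60 to 0.54 ± 0.39, and the antisense RNA Gm16124 went from 1.30 to 0.60. In these 4 genes the other 2 mutants were still above every WT retina, by less.

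In further genes the direction or most of the size was lost without it. The adhesion molecule Ncam1 had 227, 248 and 282 CPM in WT and 273, 788 and 259 CPM in mutants, and went from 0.80 ± 0.44 to 0.07 ± 0.13. Cadm1, a synaptic adhesion molecule, went from 0.64 ± 0.33 to 0.16, and Sltm, a nuclear RNA-binding protein, from 0.64 to -0.06. Islr, a secreted protein of connective tissue cells, had 11.1 CPM in that retina and 1.16 to 2.95 CPM in the other 5, and went from 1.19 ± 0.88 to -0.60 ± 0.38. In the other direction the ubiquitin ligase Nedd4 had 201 CPM in that retina and 517 to 724 CPM in the others, and went from -0.33 ± 0.44 to 0.06. The peptidase Dpp8 had 17.6 CPM there and 80.0 to 123 CPM elsewhere, and went from -0.41 to 0.06. The part of the blood and macrophage markers and of Krt5 and Krt14 of that retina in these values was not tested.

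**Figure D4:**
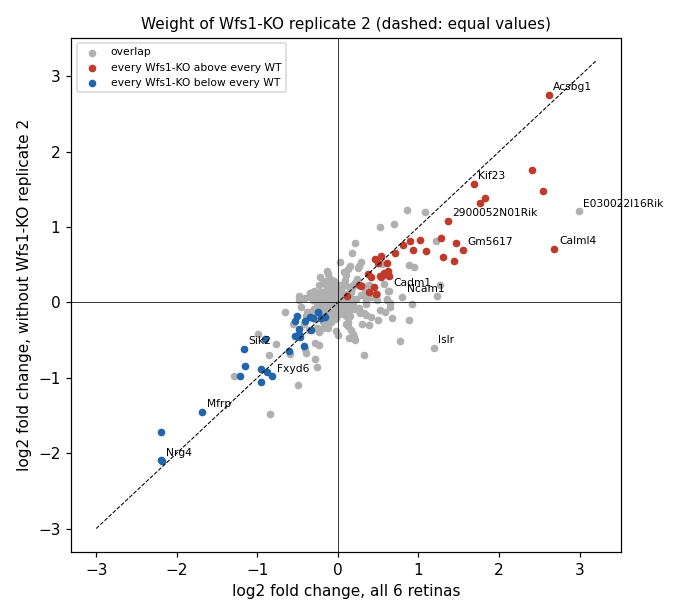
Log2 fold change without Wfs1-KO replicate 2 against the value with all 6 retinas, with 1 point per segment gene tested in both fits, the line of equality and Gm37150 left out of the axes. Nrg4 (-2.19 and -2.10) and Acsbg1 (2.62 and 2.75) lie near the line, whereas Calml4 (2.69 and 0.71) and Islr (1.19 and -0.60) lie far from it.

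Of the 430 genes, 200 were on at least 1 of 12 lists by function and 230 on none. With edgeR and all 6 retinas 0 genes of any list passed the adjusted threshold. For every list, the counts of genes without overlap stand beside 5.01% above and 3.94% below over all tested genes. The lists were written with earlier results of these data known, so their counts describe the listed genes and test nothing about a function. The list of neurotransmitter receptors and channel subunits had 11 tested genes, of which 6 were above 0 and 5 below, with a median of 0.29 (0.10 without Wfs1-KO replicate 2). In 4 of them every mutant was above WT (Fxyd2, Chrnb4, Chrna3 and the kainate receptor Grik4, at 0.44 ± 0.26 and 0.20 without Wfs1-KO replicate 2) and in 4 below (Scn4b, Fxyd6, Hcn4 and Scn2b). Drd2 was at 0.29 ± 0.21 (0.10) and Htr3a, a serotonin-gated channel, at -0.29 ± 0.45 (-0.75), both with overlap.

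Retina-linked genes numbered 11 tested of 12 in the segment, with a median of -0.03 (-0.21), and 3 were above and 3 below WT without overlap. Those above were Ift46, a part of the transport machinery of cilia, at 0.63 ± 0.24 (0.35), the carotenoid-cleaving enzyme Bco2 at 0.62 ± 0.29 (0.42), and the nuclear receptor Rora at 0.52 ± 0.25 (0.35). Those below were Mfrp, Stra6, the membrane receptor for retinol-binding protein, at -0.43 ± 0.27 (-0.58), and Cep164, a protein of the ciliary base, at -0.41 ± 0.22 (-0.25). Stra6 ranged from -0.58 to -0.21 when each retina was left out. Stra6 is itself a gene of the pigment epithelium, whose markers moved as given beside Mfrp. The Bardet-Biedl gene Bbs4 was at -0.20 ± 0.20 (-0.08).

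Mitochondrial and metabolic enzymes had 20 tested genes, 7 above 0 and 13 below, with a median of -0.07 (-0.15). Besides Acsbg1 and Adpgk, Sc5d, an enzyme of cholesterol synthesis, had 59.3, 77.4 and 63.5 CPM in WT and 53.1, 38.5 and 51.3 CPM in mutants. It was below WT in each mutant, at -0.49 ± 0.20 (-0.36). Hacd3, an enzyme of fatty acid elongation, was at -0.16 ± 0.16 (-0.20) and the ketone body enzyme Acat1 at 0.29 ± 0.17 (0.22), both without overlap. Timm8b, of the mitochondrial import machinery, went from 0.38 to -0.30 without Wfs1-KO replicate 2. Of 2 apolipoprotein genes, only Apoa1 was tested, at 1.27 ± 1.19 (0.23), and Apoc3 had 26 counts.

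The 27 tested genes of the endoplasmic reticulum, secretory pathway and lysosome had a median of -0.09 (-0.06), with 11 above 0 and 16 below. Above WT without overlap were Parp16, at 0.38 ± 0.21 (0.37), and Cln6, at 0.38 ± 0.21 (0.14). The only gene of the list below without overlap was the cochaperone Dnaja4, which is not specific to these compartments. The calcium-binding protein Rcn2 had 120, 122 and 116 CPM in WT and 113, 121 and 113 CPM in mutants, which overlap, at -0.04 ± 0.15 (-0.08). Hexa, a lysosomal hexosaminidase subunit, had 102 CPM in Wfs1-KO replicate 2 and 37.5 to 53.3 CPM elsewhere, and went from 0.41 to -0.19 without that retina.

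Kinases and other signaling genes had 23 tested genes, 8 above 0 and 15 below, with a median of -0.10 (0.08). Without overlap were Sik2, Rasl12 and Nrg4 below and the inhibitory Smad6 above, at 0.26 ± 0.25 (0.24), whereas Map2k1, the kinase upstream of ERK, was at -0.21 ± 0.19 (-0.08). Of 19 tested ubiquitin genes, 6 were above 0 and 13 below (median -0.04 and 0.04), and Fbxl22 was the 1 gene without overlap, at 0.89 ± 0.41 (0.81). The ligase Cbl was at -0.42 ± 0.28 (-0.28) and the SUMO ligase Pias1 at 0.36 ± 0.23 (0.12), both with overlap. The transcription and chromatin list had 19 tested genes, 5 above 0 and 14 below, with a median of -0.05 (0.02). Its only gene without overlap was Kmt2a, a histone methyltransferase, with 174, 273 and 343 CPM in WT and 355, 359 and 404 CPM in mutants, at 0.50 ± 0.26 (0.52). It was at 0.27 without WT replicate 1 and at 0.72 without WT replicate 3.

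RNA processing genes had 13 tested genes with a median of -0.03 (-0.05), and only Bud13, at -0.21 ± 0.16 (-0.20), had no overlap. The RNA helicase Ddx6 was at 0.14 ± 0.20 (0.21). The list of 21 tested adhesion and guidance genes had a median of -0.01 (0.05), with Mcam and Igdcc3, at 0.57 ± 0.32 (0.39), above WT without overlap and Cspg4, a pericyte proteoglycan, below at -0.88 ± 0.42 (-0.92). Of 21 tested genes of the cytoskeleton and membrane traffic, 3 were above and 1 below without overlap, and the median was 0.03 (0.03). Those above were Kif23, Tbcel at 0.47 ± 0.27 (0.11) and Lrrc49 at 0.12 ± 0.15 (0.08), and the other was Snx1 at -0.31 ± 0.16 (-0.21). Anxa2, an annexin, had 30.3 CPM in Wfs1-KO replicate 2 and 8.11 to 11.0 CPM elsewhere, and went from 0.68 to -0.20 without it. Of 7 genes of immune cells 4 were tested, none without overlap, and Nlrx1, with 4.83 CPM in Wfs1-KO replicate 2 and 2.16 to 2.46 CPM in WT, was at 0.57 ± 0.35 (0.24). The part of the blood and macrophage markers of that retina in this value was not tested.

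**Figure D5:**
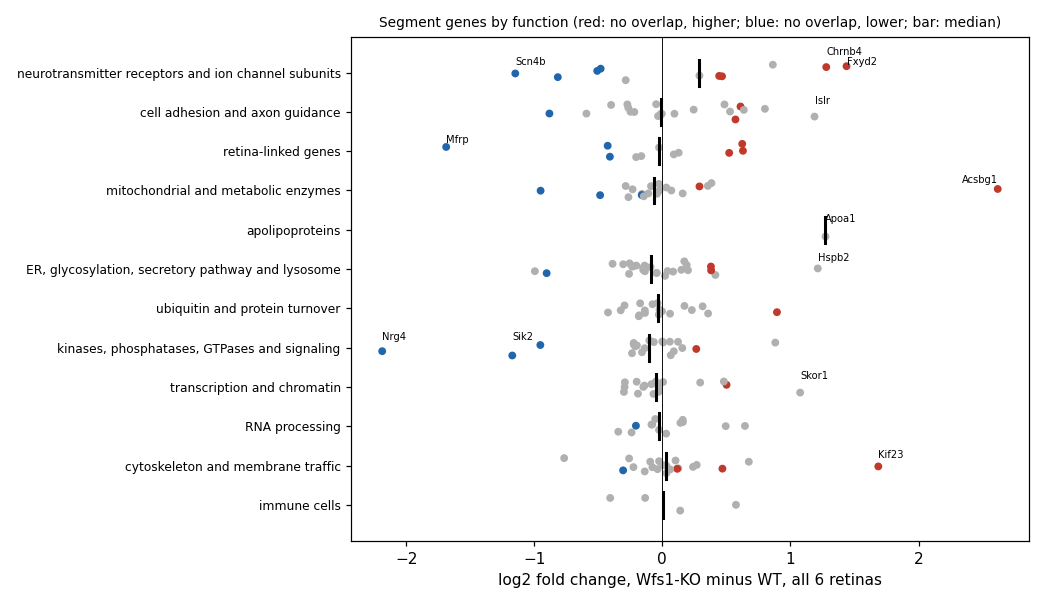
Log2 fold change of Wfs1-KO over WT for the tested segment genes of each function list, with 1 point per gene and a mark at the median of the list. List medians lie between -0.10 and 0.29 apart from the single tested apolipoprotein gene, and Nrg4 (-2.19) and Acsbg1 (2.62) stand at the ends.

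Along the chromosome the genes without overlap were spread over most of the segment. In bins of 3 Mb from its start, the last of which spans 1 Mb, their share of the tested genes was 25.5%, 30.3%, 35.7%, 15.0%, 26.5%, 7.27%, 28.6%, 19.0%, 22.2%, 0% and 8.33%. Over all tested genes 5.01% were above and 3.94% below without overlap. The first 3 bins held 19 of the 37 genes above and 13 of the 28 below. The bin without any held 18 tested genes, and the sixth, with 55 tested genes, held 4 below and none above. At the lower edge, the first genes inside were 4930546K05Rik, untested with 21 counts, and Sc5d, given above, and the first outside were Sorl1 at 0.38 ± 0.25 and Gm40513, with 16 counts. At the upper edge, Ccpg1os at 0.32 ± 0.24 (0.11) and Ccpg1 at -0.995 ± 1.07 (-0.42) were the last inside. Ccpg1 had 97 counts in all and shares 3213 exon bases on the same strand with Gm44503. The first outside were Gm27353 at -1.17 and Pigb at -0.08. At the count minimum, 10 genes of the interval had exactly 10 counts and 5 had 9.

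The 109 untested genes had a median of 30 counts over the 6 libraries. Of these, 10 (9.17%) had counts only in mutant retinas and 2 (1.83%) only in WT retinas. Over all 6718 untested genes of the table with 10 or more counts the shares were 7.25% and 0.551%, and the mutant libraries held 188254057 counts in all against 131230692 in WT. Treh, the enzyme that splits the sugar trehalose, had no count in WT and 24, 4 and 22 counts in mutant replicates 1, 2 and 3, which is at least 11.6-fold higher with a floor of 3 counts over the group. Gm17853 had 15, 10 and 5 counts in WT and none in the mutants, at least 14.4-fold lower. Cd3g and Cd3d, subunits of the T cell receptor complex, had no count in WT. Cd3g had 2, 16 and 0 counts and Cd3d 0, 8 and 2 in mutant replicates 1, 2 and 3, so that most came from the retina with the highest blood and macrophage markers. Btg4, a gene of egg maturation, had 46, 8 and 4 counts in WT and 4, 0 and 0 in mutants. Counts this low limit what can be read from them, and a count of 0 means no count at this depth.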

How the data were processed

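RNA of whole retinas was sequenced from 3 WT and 3 Wfs1-KO mice, and groups were taken from the labels. Per the labels, libraries came from a TruSeq RNA kit, reads were trimmed with Trimmomatic 0.39 and mapped to mm10 with STAR 2.5.3a, and the authors counted them on exons with featureCounts 1.6.4. The deposited table holds raw counts per gene with its exon length in bases (the other unit used). Of its 8 library columns, 2 had names that fit none of the listed samples and were left out. The labels name Trizol for the RNA and the methods a column kit.

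Genes were tested with edgeR 4.0.16 in R 4.3.3 (filterByExpr, TMM, quasi-likelihood, Benjamini-Hochberg adjustment, threshold 0.05), over the whole table. DESeq2 1.42.0 was an alternative, as were other normalizations and filters, a replicate block, leaving out each retina and narrower segment edges. Standard errors are the size of the log2 fold change over the square root of F. CPM used TMM library sizes. The fit was tested on simulated data, in which no retina was set apart as Wfs1-KO replicate 2 is, so that case was not covered. Gene types came from GENCODE M21, with 428 of 430 genes found. No overlap means that every retina of one genotype lies above every retina of the other. With 3 against 3, an exact two-sided permutation test cannot go below p = 0.1, so none was run for single genes. The retinas came from separate mice, and floors cover counting error only.

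The genes, function lists and markers were chosen with earlier results of these data known. Genes were named by rule: up to 12 higher and 12 lower without overlap and with at least 50 counts on average, per list the 2 with the highest CPM per kb and the 2 with the largest difference, those past the adjusted threshold, the 5 highest in level, and those at the edges and the count minimum. Other genes in the text, such as Acsbg1, Tmprss4, Kif23, Gm6257, Stra6, Rora, Treh and Btg4, were chosen after their values were seen.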

Additional observations from a re-analysis of the deposited data

How the results depend on the processing

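With edgeR, 2 genes of the table and 0 of the segment genes described here passed the adjusted threshold. DESeq2 gave 52 and 6, no filter on low counts gave 9 and 1, the replicate block gave 1 and 0, and leaving out each retina in turn gave 0 to 24 and 0 to 2, the highest without Wfs1-KO replicate 2. Deviations from the group means of retinas with the same replicate number correlated at -0.234, -0.111 and 0.0784. With 3 retinas per group, and Wfs1-KO replicate 2 apart from the others, these values cannot tell whether the numbers pair the samples. The median log2 fold change of members of the segment that were tested, -0.026, was -0.00507 with upper-quartile scaling and between -0.045 and 0.014 when each retina was left out. Genes above WT without overlap numbered 40 to 60 instead of 37, and those below 40 to 64 instead of 28. Over all tested genes the shares were 5.01% above and 3.94% below with all 6 retinas. Without Wfs1-KO replicate 2 they were 11.0% and 11.4%. For the other retinas left out, the shares over all genes are not given here, so those counts cannot be set against them. Leaving out a retina leaves fewer values to be separated, which by itself lets more genes count as separate. Counts moved by over 1.5 times above WT without WT replicate 1 (60) and Wfs1-KO replicate 2 (58), and below WT without WT replicates 1, 2 and 3 (48, 51 and 48) and Wfs1-KO replicate 2 (64). With edges moved in by 3 Mb there were 28 above and 24 below, with a median of -0.022. Of 728 values of 61 named genes under the alternatives, 703 kept within their spread or side and 25 moved, 17 of them without Wfs1-KO replicate 2. In all, 37 values in 19 genes changed sign, some of them among the 703. Nedd4 (-0.33 to 0.06) and Dpp8 (-0.41 to 0.06) did so without Wfs1-KO replicate 2. Of 143 list medians 6 moved and 19 in 9 lists changed sign. The common dispersion was 0.128 with all 6 retinas and 0.0322 without Wfs1-KO replicate 2.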
